A study of Homo sapiens with 6 samples.

Results

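The genes described here are the feedback and adaptor genes of tumour necrosis factor (TNF) receptor signalling to NF-kB: TNFAIP3 (protein A20), TNFAIP2, TNIP1, BIRC2, BIRC3, TRAF1, TRAF2, TRAF3, CYLD and MAP3K14. They were chosen by gene symbol, with no measured value in the rule, though with earlier results of these data known. All 10 symbols were found among the 60623 named rows of the deposited table. RNA was measured in 3 libraries made after XYA1353, coded P17 in the deposited table, and in 3 control libraries, all taken at 48 h and carrying the label RPMI-8226, the name of an established line of human myeloma cells. XYA1353 is a 2-iminobenzimidazole by the series title, which names NF-kB signalling as the study's question. The labels used here give neither a dose nor a vehicle, list no other agent or allele, and leave unsaid whether each library is a culture of its own. The spread that the p-values rest on is that of these libraries alone and may be technical. Values are TPM, in which transcript abundance is scaled by gene length and to the same total in every library, so the sequencing depth behind each value is unknown.

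When a TNF family receptor is engaged, TRAF adaptors and the cIAP ubiquitin ligases assemble at it and build ubiquitin chains that activate the IKK complex and free NF-kB to enter the nucleus. Deubiquitinases such as A20 and CYLD take this signal down again, and several of the genes that encode these proteins are themselves switched on by NF-kB, which closes a feedback loop. In resting cells TRAF2, TRAF3 and the cIAPs also keep the NF-kB-inducing kinase, encoded by MAP3K14, at a low level. Genes of this module are recurrently mutated in multiple myeloma.

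The marker transcripts did not match the labelled cell type in either group. Of 15 plasma cell and myeloma markers, 14 averaged under 1 TPM, and CD38, TNFRSF17, JCHAIN, MAF, IGLC2, IGLC3 and IGHA1 were listed at 0 in every library. The exception was XBP1, which other secretory or stressed cells also express. The 15 erythroid markers were all abundant, with means of 10 TPM or more. The summed erythroid marker level was 7160, 10700 and 18800 TPM in XYA1353 replicates 1, 2 and 3, against 10800, 11400 and 13500 TPM in control replicates 1, 2 and 3. Most of this sum came from the globin genes HBG2 and HBA1 in every library. Of 5 B cell, 4 T cell and 5 myeloid markers, none had a mean of at least 10 TPM. The values below therefore describe the libraries that carry the RPMI-8226 label.

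Of the 10 genes, TNFAIP3, TNIP1, CYLD, BIRC3 and TNFAIP2 were higher in XYA1353 libraries and none was lower. On the log2(TPM + 1) scale TNFAIP3 changed most. By the ratio of mean TPM, BIRC3 and TRAF1, both very low in control libraries, came before it. With a pseudocount of 0.1 BIRC3 came first at 4.20, and TRAF1 at 3.28 could not be ranked against TNFAIP3 at 3.27 (SE 0.43). TRAF2, TRAF3, BIRC2 and MAP3K14 did not pass the test, and TRAF1 was too low to enter it. The test was limma on log2(TPM + 1) over the 13392 genes that averaged 1 TPM or more, and calls were made at a Benjamini-Hochberg adjusted p below 0.05. Of all genes tested 31.4% were called in either direction, 15.4% higher and 16.0% lower, while 5 of the 9 tested genes of this group were higher and 0 were lower, also 0 at an unadjusted p under 0.05. Their median log2 fold change was 0.56, against 0.02 over all genes tested. BIRC3 passed the filter only through its XYA1353 values. The libraries of the 2 groups did not overlap for 6 of the 9, against 47.6% of all genes tested. In all 6 every XYA1353 library lay above every control library, against 23.8% of all genes tested. Since the genes were chosen with earlier results of these data known, these shares describe the group and are no test of it.

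**Figure D1:**
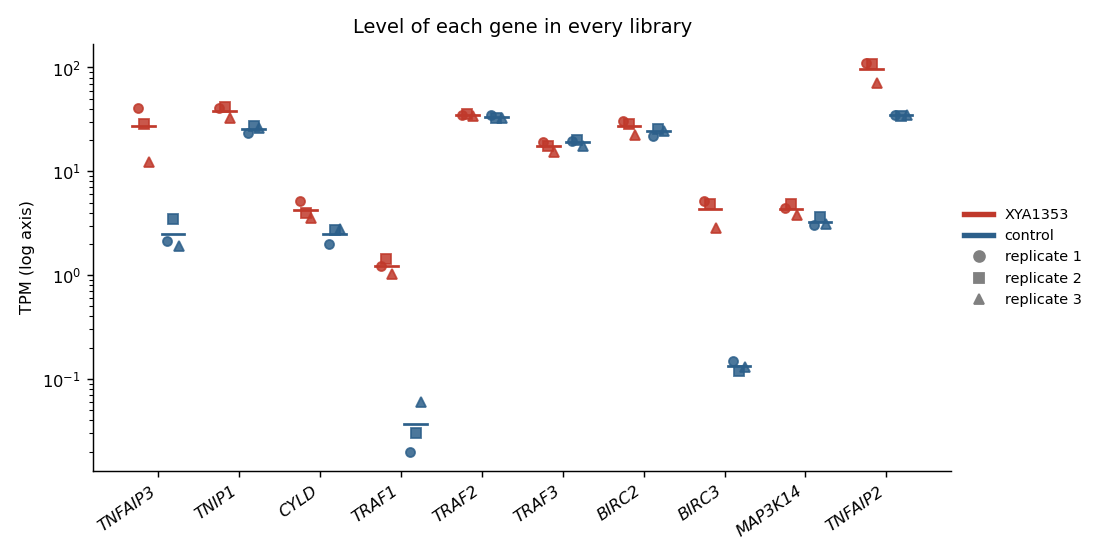
TPM of the 10 genes in each library on a log axis, with XYA1353 on the left of each pair and control on the right, symbols for the replicate number and bars for group means. BIRC3 and TRAF1 are below 0.2 TPM in every control library, while TRAF2, TRAF3 and BIRC2 overlap between groups.

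Sequences before the start sites are shown for 6 genes, since they let the letters be set beside the values: TNFAIP3, BIRC3 and TNIP1 rose and hold the NF-kB decamer, TRAF3 holds it and was not called, BIRC2 lacks it and was not called, and TNFAIP2 rose and lacks it. The 250 bases upstream of each RefSeq start site (build GRCh38.p14, gene strand, 5′ to 3′) were searched on both strands for the 10-base NF-kB consensus, and matches are in capitals. The windows are TNFAIP3 at chr6:137867009-137867258 (plus), BIRC3 at chr11:102317234-102317483 (plus), TNIP1 at chr5:151081035-151081284 (minus), BIRC2 at chr11:102346964-102347213 (plus), TRAF3 at chr14:102777199-102777448 (plus) and TNFAIP2 at chr14:103123211-103123460 (plus).
TNFAIP3: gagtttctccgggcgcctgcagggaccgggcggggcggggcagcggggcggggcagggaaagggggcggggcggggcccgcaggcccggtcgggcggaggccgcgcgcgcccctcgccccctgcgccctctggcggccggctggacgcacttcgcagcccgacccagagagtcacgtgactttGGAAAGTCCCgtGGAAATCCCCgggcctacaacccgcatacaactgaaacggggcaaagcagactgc
BIRC3: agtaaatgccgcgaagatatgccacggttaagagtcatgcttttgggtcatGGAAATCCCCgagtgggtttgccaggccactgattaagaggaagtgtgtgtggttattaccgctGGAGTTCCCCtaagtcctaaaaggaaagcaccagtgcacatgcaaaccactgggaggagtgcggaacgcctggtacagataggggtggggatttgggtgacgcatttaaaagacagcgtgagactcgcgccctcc
TNIP1: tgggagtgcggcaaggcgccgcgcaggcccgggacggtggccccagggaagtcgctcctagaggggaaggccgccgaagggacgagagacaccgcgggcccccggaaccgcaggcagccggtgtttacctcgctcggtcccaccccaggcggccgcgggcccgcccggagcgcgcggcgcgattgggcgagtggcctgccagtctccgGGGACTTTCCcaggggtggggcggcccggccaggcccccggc
BIRC2: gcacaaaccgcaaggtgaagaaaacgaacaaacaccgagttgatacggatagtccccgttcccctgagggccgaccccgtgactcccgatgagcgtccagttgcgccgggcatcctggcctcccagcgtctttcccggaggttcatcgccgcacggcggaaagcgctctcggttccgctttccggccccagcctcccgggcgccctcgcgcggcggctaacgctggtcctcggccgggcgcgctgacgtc
TRAF3: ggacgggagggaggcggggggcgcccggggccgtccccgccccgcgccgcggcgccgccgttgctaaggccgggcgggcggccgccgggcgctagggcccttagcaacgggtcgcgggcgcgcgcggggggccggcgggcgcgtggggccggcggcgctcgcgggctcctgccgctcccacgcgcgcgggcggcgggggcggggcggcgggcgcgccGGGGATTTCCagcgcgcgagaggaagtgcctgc
TNFAIP2: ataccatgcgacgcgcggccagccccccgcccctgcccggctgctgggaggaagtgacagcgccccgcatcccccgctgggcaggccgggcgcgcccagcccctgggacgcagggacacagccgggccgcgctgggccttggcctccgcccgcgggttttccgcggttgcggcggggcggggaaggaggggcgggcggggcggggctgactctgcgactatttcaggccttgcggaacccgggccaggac

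The TNFAIP3 window held 2 matches, beginning at positions -67 and -55 from the start site, and the BIRC3 window held 2, at -199 and -135. TNIP1 held 1 match at -42, TRAF3 held 1 at -33, and CYLD, not printed, held 1 at -189. All 10 symbols were found in the RefSeq table, with 16 windows, since some genes have several starts. Of these windows 31.2%, or 5 of 16, held a match, against 9.96% of all 35116 RefSeq windows and 11.9% of the windows of genes tested. The genes were listed as feedback and adaptor genes of NF-kB signalling, and windows of 1 gene are not independent. The share therefore describes the list and is no test of it. At least 2 matches stood in 1.95% of the windows of genes tested. The letters and the changes did not run in parallel throughout: TRAF3 had a match and was not called, whereas TNFAIP2 rose with none in its window. TRAF1, too low for the test but higher in every XYA1353 library than in any control library, also held none in any of its windows. BIRC2, TRAF2 and MAP3K14, which were not called, held none in theirs. The TNIP1 window belongs to a start 12543 bases from the one GENCODE annotates farthest upstream. A match describes letters and is not a measured binding site.

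Among the 3 genes of ubiquitin editing, TNFAIP3 changed most. TNFAIP3 (ENSG00000118503, GRCh38 chromosome 6, 137867188 to 137883312, plus strand) encodes A20, which removes and edits ubiquitin chains on receptor-proximal proteins. It stood at 40.97, 28.26 and 12.35 TPM in XYA1353 replicates 1, 2 and 3, against 2.15, 3.45 and 1.92 TPM in control replicates 1, 2 and 3. The groups did not overlap, and the lowest XYA1353 library still lay above the highest control. The means were 27.2 ± 14.3 TPM in XYA1353 and 2.51 ± 0.825 TPM in control libraries (SD, n = 3 each), a ratio of 10.8. The log2 fold change was 2.88 (SE 0.40, limma adjusted p = 0.00272), rank 20 from the top of 13392 genes. An antisense gene, AL357060.1, overlaps 1046 bases of TNFAIP3 and stood at 2.66 ± 0.304 TPM in XYA1353 and 1.41 ± 0.706 TPM in control libraries (limma adjusted p = 0.0864). Whether the authors counted by strand is not given in the sources used here, so reads of the pair cannot be told apart. Because this is RNA from whole cultures, a change in the share of cells and a change in RNA per cell cannot be told apart, here and for every gene below.

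TNIP1 and CYLD rose less. TNIP1 (ENSG00000145901, chromosome 5, 151029945 to 151093577, minus strand) encodes ABIN-1, a ubiquitin-binding partner through which A20 reaches its targets. Its level was 40.79, 41.69 and 32.67 TPM in XYA1353 replicates, against 23.64, 27.17 and 26.08 TPM in control replicates. The 2 groups were separate, and the mean rose 1.5-fold, or 0.56 on the log2 scale (SE 0.11, limma adjusted p = 0.0098). CYLD (ENSG00000083799, chromosome 16, 50742050 to 50801935, plus strand) encodes a deubiquitinase and tumour suppressor. It stood at 5.22, 3.95 and 3.57 TPM in XYA1353 libraries, against 1.98, 2.74 and 2.8 TPM in control libraries. The log2 fold change was 0.58 (SE 0.18, limma adjusted p = 0.0484), just inside the threshold. With the replicate number as a block the CYLD call was lost (limma adjusted p = 0.0859). It was also lost on leaving out XYA1353 replicate 1 or 2 or any control library (adjusted p between 0.0834 and 0.13), with the direction kept.

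The paralogous ubiquitin ligase genes BIRC3 and BIRC2 differed in their response. They lie in tandem on chromosome 11, on the same strand, 7807 bases apart with no protein-coding gene between them. BIRC3 (ENSG00000023445, 102317450 to 102339403) encodes cIAP2 and stood at 5.23, 4.87 and 2.87 TPM in XYA1353 replicates, against 0.15, 0.12 and 0.13 TPM in control replicates. The control mean of BIRC3 lay above that of only 0.493% of the genes tested, so the ratio of means, 32.4, rests on very low values. The log2 fold change was 2.20 (SE 0.23, limma adjusted p = 0.00147), or 4.20 with a pseudocount of 0.1, which weighs low values more. BIRC2 (ENSG00000110330, 102347211 to 102378670) encodes cIAP1 and stood at 30.62, 28.84 and 22.24 TPM in XYA1353 replicates, against 22.07, 25.79 and 24.7 TPM in control replicates. These overlapped, and the log2 fold change of 0.16 had a 95% interval of -0.15 to 0.46 (limma adjusted p = 0.404).

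BIRC2 remained the more abundant of the pair in both groups. BIRC3 made up 14.6%, 14.4% and 11.4% of the summed BIRC2 and BIRC3 TPM in XYA1353 replicates, against 0.675%, 0.463% and 0.524% in control replicates. The summed level itself was 31.6 ± 5.68 TPM in XYA1353 and 24.3 ± 1.90 TPM in control libraries (SD, n = 3 each), a difference with an exact two-sided permutation p of 0.2. Within libraries, the log2 difference of BIRC3 from BIRC2 averaged -2.43 ± 0.14 in XYA1353 and -4.47 ± 0.13 in control libraries (SD, n = 3 each). The groups differed by 2.05, with an exact two-sided permutation p of 0.1, also 0.1 after adjustment over 5 pairs. That p is the smallest 3 against 3 libraries can give, so a threshold of 0.05 could not be reached.

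**Figure D2:**
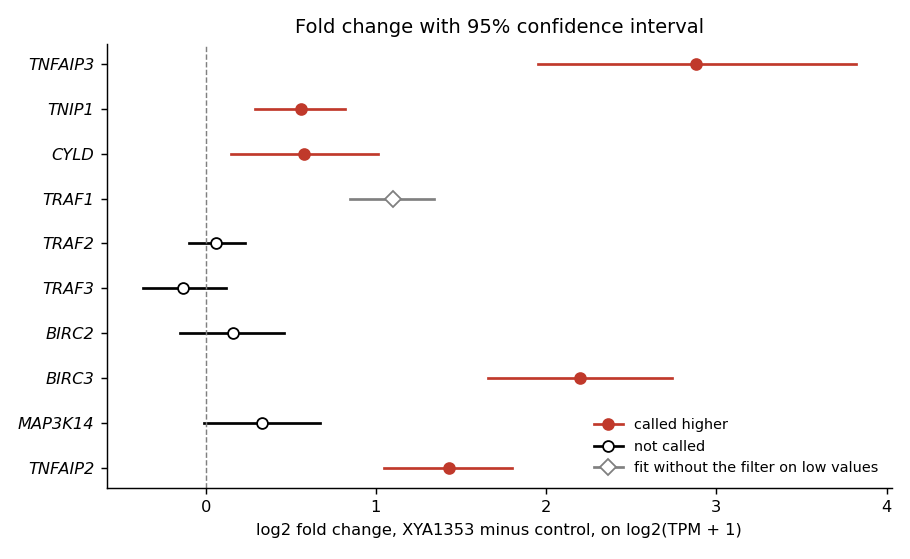
Log2 fold change on log2(TPM + 1), XYA1353 minus control, with its 95% confidence interval for each gene; filled points were called, open circles were not, and the open diamond for TRAF1 comes from the fit without a filter on low values. TNFAIP3 at 2.88 and BIRC3 at 2.20 lie farthest to the right, and the intervals of TRAF2, TRAF3, BIRC2 and MAP3K14 include 0.

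The TRAF adaptors split in a similar way. TRAF1 (ENSG00000056558, chromosome 9, 120902393 to 120929173, minus strand), the member of the family without a RING domain and a known NF-kB target, was at 1.23, 1.43 and 1.02 TPM in XYA1353 replicates, against 0.02, 0.03 and 0.06 TPM in control replicates. The groups were far apart, but the mean of 0.632 TPM kept the gene out of the test. The difference on log2(TPM + 1) was 1.10 (exact two-sided permutation p = 0.1, the smallest possible). In the fit without a filter on low values, in which 5.78% of 27014 genes were called higher, TRAF1 was called as well (limma adjusted p = 0.00652). With a pseudocount of 0.1 its difference was 3.28.

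TRAF2 and TRAF3, which hold the cIAPs in the complex that marks the NF-kB-inducing kinase for degradation, were not called. TRAF2 (ENSG00000127191, chromosome 9, 136881912 to 136926607, plus strand) stood at 34.49, 35.42 and 34.27 TPM in XYA1353 replicates, against 34.82, 32.28 and 32.52 TPM in control replicates. Its values overlapped, with a log2 fold change of 0.06 and a 95% interval of -0.10 to 0.23 (limma adjusted p = 0.527), and the sign turned to -0.0041 when totals were rescaled leaving aside ribosomal RNA, mitochondrial and immunoglobulin genes. TRAF3 (ENSG00000131323, chromosome 14, 102777476 to 102911500, plus strand) stood at 19.25, 17.53 and 15.49 TPM in XYA1353 replicates, against 19.64, 19.91 and 17.62 TPM in control replicates. It overlapped too, with a log2 fold change of -0.13 and a 95% interval of -0.37 to 0.12 (limma adjusted p = 0.403). The summed level of the 3 TRAF genes was 53.4 ± 2.27 TPM in XYA1353 and 52.3 ± 2.14 TPM in control libraries (SD, n = 3 each; exact two-sided permutation p = 0.6). TRAF1 made up 2.29 ± 0.314% of it in XYA1353 and 0.0712 ± 0.0431% in control libraries.

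MAP3K14 (ENSG00000006062, chromosome 17, 45263119 to 45317145, minus strand), which encodes the NF-kB-inducing kinase of the non-canonical pathway, was not called either. It stood at 4.43, 4.84 and 3.83 TPM in XYA1353 replicates, against 3.06, 3.66 and 3.1 TPM in control replicates. Every XYA1353 library lay above every control library, and the log2 fold change was 0.33 with a 95% interval of -0.01 to 0.67 (limma adjusted p = 0.127). Its antisense neighbour MAP3K14-AS1, which overlaps it over 5512 bases, was at 7.52 ± 2.14 TPM in XYA1353 and 3.82 ± 0.772 TPM in control libraries (SD, n = 3 each; log2 fold change 0.80, limma adjusted p = 0.0302). MAP3K14-AS1 was no longer called with the replicate block (adjusted p = 0.0594), nor on leaving out replicate 1 or 2 of either group (adjusted p between 0.0903 and 0.105). Since strand use is not known, the level of MAP3K14 may include its reads, and the part of MAP3K14-AS1 in the MAP3K14 value was not tested. Within libraries the log2 difference of MAP3K14 from TRAF3 averaged -1.78 ± 0.12 in XYA1353 and -2.23 ± 0.10 in control libraries (SD, n = 3 each), an increase of 0.45 (exact two-sided permutation p = 0.1, the smallest possible).

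TNFAIP2 (ENSG00000185215, chromosome 14, 103123442 to 103137439, plus strand) was the most abundant gene of the group and shares with TNFAIP3 its discovery as a TNF-induced transcript rather than its function. Its protein is known for promoting membrane protrusions between cells. It stood at 109.5, 108.51 and 71.51 TPM in XYA1353 replicates, against 34.92, 34.23 and 34.71 TPM in control replicates. The control libraries were nearly equal, and every XYA1353 library lay far above them, replicate 3 the least. The mean was 2.79 times the control mean, or 1.43 higher on the log2 scale (SE 0.16, limma adjusted p = 0.00163). TNFAIP2 lies on the same strand as TRAF3, 211941 bases downstream with 4 protein-coding genes between them.

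**Figure D3:**
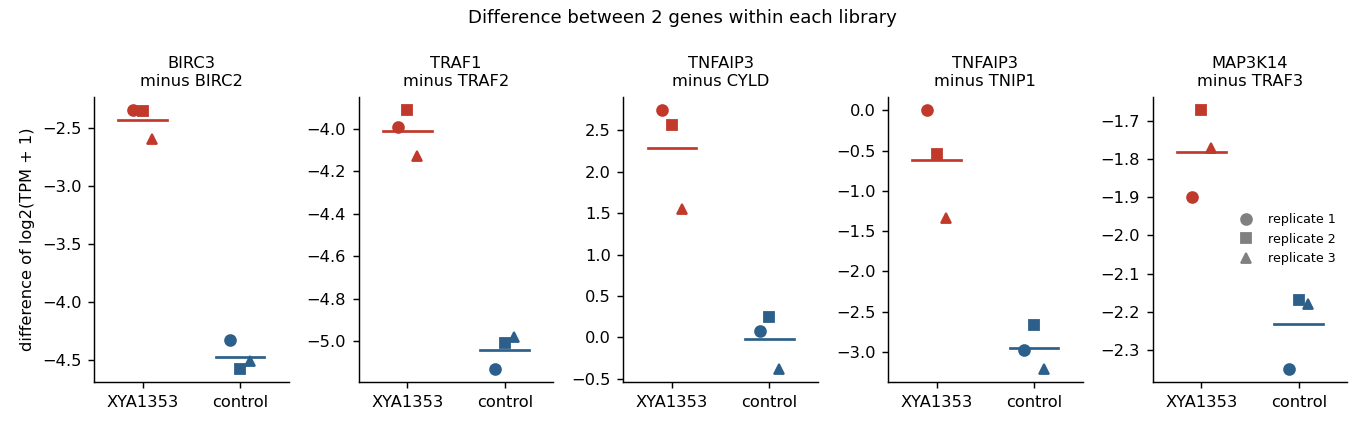
Difference of log2(TPM + 1) between the 2 genes named above each panel within each library, XYA1353 on the left and control on the right, with bars for group means and a separate scale in each panel. In all 5 panels the 3 XYA1353 libraries lie above the 3 control libraries.

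The order of levels changed with these differences. In XYA1353 libraries TNFAIP2 came first, followed by TNIP1 and TRAF2, whose ranges overlapped, then BIRC2, TNFAIP3 and TRAF3, each overlapping the next. MAP3K14, BIRC3 and CYLD, at 4.37, 4.32 and 4.25 TPM, could not be ranked beyond their spread, and TRAF1 was lowest. In control libraries TNFAIP2 and TRAF2 overlapped at the top, TNIP1 and BIRC2 came next and overlapped, and TRAF3, MAP3K14, CYLD, TNFAIP3, BIRC3 and TRAF1 followed. In that lower part CYLD and TNFAIP3 overlapped, and the other neighbours did not. By mean level TNFAIP3 thus stood beside CYLD in control libraries and beside BIRC2 and TRAF3 in XYA1353 libraries. Overlap was read between neighbours in rank only. The TNFAIP3 range in XYA1353 libraries, 12.35 to 40.97 TPM, also overlapped those of TRAF2 and TNIP1, and its control range overlapped that of MAP3K14.

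In RNA level, TNFAIP3 stood higher relative to TNIP1 and to CYLD in every XYA1353 library than in any control library. The ratio of TNFAIP3 to TNIP1 TPM was 1.00, 0.678 and 0.378 in XYA1353 replicates 1, 2 and 3, against 0.0909, 0.127 and 0.0736 in control replicates. Relative to TNIP1, TNFAIP3 was higher by 2.32 on the log2 scale, and relative to CYLD by 2.30. The rise of TRAF1 relative to TRAF2 was 1.04. Each of these comparisons had an exact two-sided permutation p of 0.1, the smallest possible.

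XYA1353 replicate 3 was the lowest of the XYA1353 libraries for all 10 genes. The same held for 47.2% of all genes tested and for 69.1% of genes called higher. For TNFAIP3, the rise over the control mean on log2(TPM + 1) was 3.61, 3.09 and 1.95 in XYA1353 replicates 1, 2 and 3. For BIRC3 it was 2.46, 2.37 and 1.77, and for TNFAIP2 1.63, 1.62 and 1.03. XYA1353 replicate 3 was also the library with the highest summed erythroid marker level, a sum made up mostly of globin transcripts. The part of that in these results was not tested. Without XYA1353 replicate 3 the log2 fold change of TNFAIP3 was 3.35 (limma adjusted p = 0.00135), that of BIRC3 was 2.42 and that of TNFAIP2 was 1.63. BIRC2 was not called there either, at 0.29 (limma adjusted p = 0.0622).

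**Figure D4:**
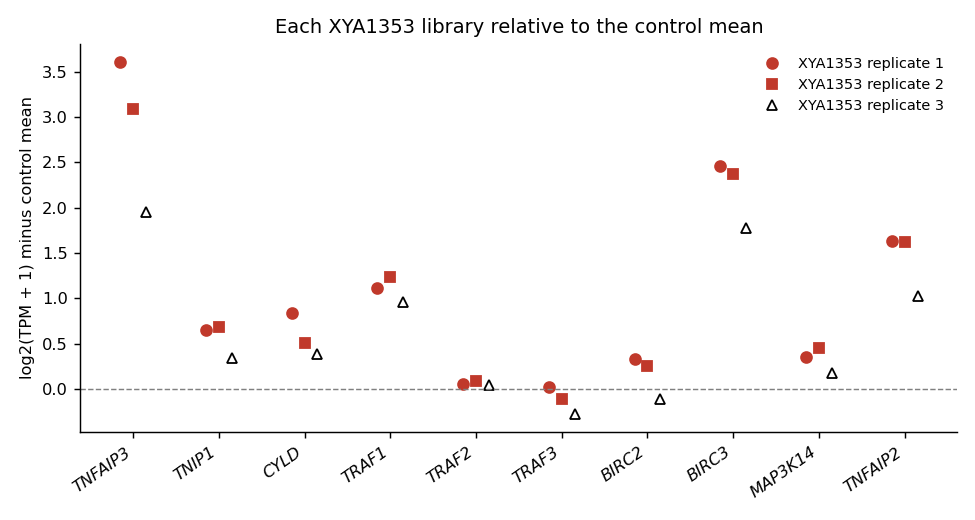
Log2(TPM + 1) of each XYA1353 library minus the control mean, for the 10 genes; open triangles are replicate 3, filled circles and squares replicates 1 and 2. Replicate 3 is the lowest point for every gene, yet for TNFAIP3, BIRC3 and TNFAIP2 it stays above 1.

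Other genes of the same pathway were read from a list of 52, of which 44 were tested. The test called 11 of them higher and 5 lower and left 28 uncalled, and the median change was 0.05 on the log2 scale. The called share was 36.4%, near the 31.4% of all genes tested. RELB, TNFRSF4 and TNFRSF9, all among those that rose, had control means under 1 TPM and entered the test only through their XYA1353 values. In the fit without a filter on low values these 3 genes were called as well (limma adjusted p between 0.00652 and 0.0114). The linear ubiquitin ligase, whose chains A20, ABIN-1 and CYLD bind or cut, had 2 of 3 genes higher. RBCK1 (HOIL-1) stood at 161.2, 124.27 and 79.46 TPM in XYA1353 replicates, against 35.87, 38.65 and 40.48 TPM in control replicates, and rose by 1.58 on the log2 scale (limma adjusted p = 0.00313). SHARPIN rose by 0.86 (adjusted p = 0.00335), and RNF31, the catalytic subunit HOIP, was not called. Of 9 tested A20 partners and related regulators 1 rose, 0 fell and 8 were not called. The gene that rose was ZC3H12A, which encodes an RNA-degrading enzyme that limits inflammatory transcripts, by 0.68 (adjusted p = 0.02). That call ended on leaving out control replicate 2 or 3 or, in the XYA1353 group, replicate 1 or 2 (adjusted p between 0.0547 and 0.0673).

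Among 6 other TRAF genes and TRAF-binding genes only TRAF4 was called, higher by 0.53 (limma adjusted p = 0.00743). Of 6 tested genes of other IAP proteins and their antagonists 0 rose and 2 fell. The called share was 33.3% here and 16.7% among those TRAF genes, against 31.4% of all genes tested. BIRC5 (survivin), which acts in mitosis, fell by 0.42 (limma adjusted p = 0.00919). XIAP, a direct caspase inhibitor, fell by 0.49 (adjusted p = 0.0481), a call that ended with the replicate block (adjusted p = 0.0561) and on leaving out any library but XYA1353 replicate 2 (adjusted p between 0.0738 and 0.148). Of 10 genes of receptor-proximal kinases and their partner subunits 1 rose, 1 fell and 8 were not called. IKBKG (NEMO) rose by 0.29 (adjusted p = 0.0197) and CHUK (IKK alpha) fell by 0.46 (adjusted p = 0.0312). The rise of IKBKG was no longer called on leaving out any library but XYA1353 replicate 3 (adjusted p between 0.0521 and 0.0693). The fall of CHUK was no longer called on leaving out any library but XYA1353 replicate 1 (adjusted p between 0.0732 and 0.102). Without any 1 library the number of the 44 that rose was between 9 and 15, and the number that fell was 3 or 4.

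Receptors that recruit TRAF proteins, with the adaptor gene TRADD, held calls in both directions. Of all genes tested 15.4% were called higher and 16.0% lower. The 8 tested genes of this role divided into 4 that rose, 2 that fell and 2 without a call. The filter favours genes that rose in this count, since 2 of the 4 were near 0 in control libraries and 6 further listed genes were too low to test. TNFRSF12A, the TWEAK receptor, stood at 42.54, 45.44 and 35.87 TPM in XYA1353 replicates, against 16.83, 24.95 and 25.76 TPM in control replicates, and rose by 0.86 (limma adjusted p = 0.00913). TNFRSF8, which encodes CD30, stood at 11.46, 9.62 and 12.84 TPM in XYA1353 replicates, against 21.21, 20.38 and 22.51 TPM in control replicates, and fell by 0.87 (adjusted p = 0.00259). TNFRSF1B, TNFRSF4, TNFRSF9 and TRADD, the other called genes of this role, fall outside the naming rule or its limit of 2 and were picked once their values were known. TNFRSF1B, which encodes the second TNF receptor, was at 10.06, 10.31 and 11.69 TPM in XYA1353 replicates, against 15.71, 15.09 and 17.12 TPM in control replicates, and fell by 0.54 (adjusted p = 0.00764). TRADD rose by 0.81 (adjusted p = 0.0031). TNFRSF4 and TNFRSF9 encode the T cell costimulatory receptors OX40 and 4-1BB. TNFRSF4 was at 10.13, 9.71 and 4.92 TPM in XYA1353 replicates, against 0.07, 0.14 and 0 TPM in control replicates (log2 fold change 3.06, adjusted p = 0.00122). TNFRSF9 was at 3.28, 3.78 and 1.53 TPM in XYA1353 replicates, and in control libraries it was listed at 0.02 TPM in replicate 1 and at 0 in the other libraries. The T cell markers CD2 and TRAC were listed at 0 in all 6 libraries. CD3D, another T cell marker, was at 0.31, 0.82 and 0 TPM in XYA1353 replicates, against 0.3, 5.76 and 0.28 TPM in control replicates. The summed T cell marker level was 0 to 0.82 TPM in XYA1353 and 0.28 to 5.81 TPM in control libraries. The part of T cells in the TNFRSF4 and TNFRSF9 values was not tested. The genes of the non-canonical NF-kB subunits, which act downstream of the NF-kB-inducing kinase, both rose, RELB being one of the genes tested only through its XYA1353 values. RELB was at 21.45, 21.02 and 9.89 TPM in XYA1353 replicates, against 0.14, 0.31 and 0.63 TPM in control replicates, while NFKB2 averaged 44.1 ± 14.9 TPM in XYA1353 and 6.71 ± 1.46 TPM in control libraries (SD, n = 3 each).

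**Figure D5:**
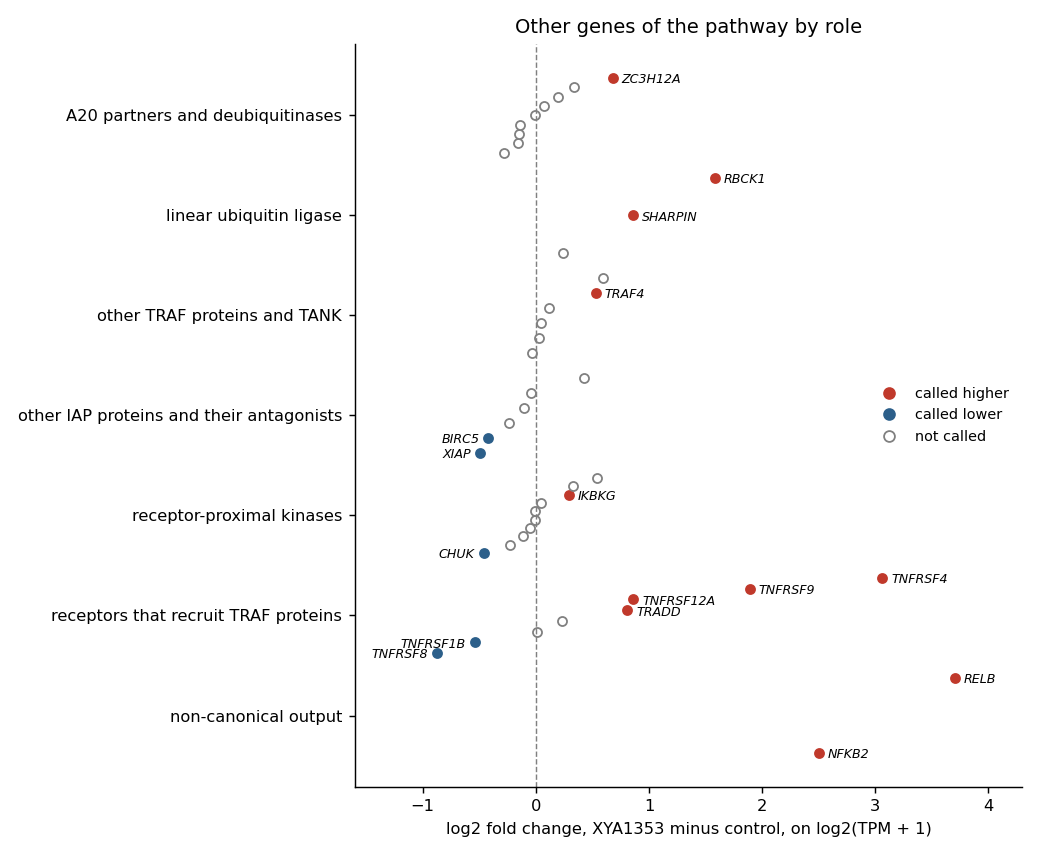
Log2 fold change on log2(TPM + 1), XYA1353 minus control, of 44 other pathway genes grouped by role, with called genes filled and named and the rest open. RELB and TNFRSF4 lie farthest to the right, and TNFRSF8 farthest to the left.

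The genes whose profile over the 6 libraries was most like that of each called gene were taken by the smallest root-mean-square difference of log2(TPM + 1), after subtraction of each gene's control mean. For TNFAIP3 they were UNC5B, a netrin receptor gene (0.194), DDIT3, which encodes the stress factor CHOP (0.202), and CXCL3, a chemokine gene (0.205). UNC5B stood at 9.38 TPM on average in XYA1353 and 0.503 TPM in control libraries. For BIRC3 they were IRF1, an interferon response factor gene (0.128), OPTN, which encodes the ubiquitin-binding autophagy receptor optineurin (0.136), and RENBP (0.143). TNFAIP2 was nearest to RABAC1, SDC3 and HECW2-AS1 (0.0791 to 0.0897), TNIP1 to ADGRD1, DNASE2 and RAB6A (0.0346 to 0.0394), and CYLD to LETMD1, ZNF140 and AL390879.1 (0.0453 to 0.0657).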

How the data were processed

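RNA was measured in 3 XYA1353 and 3 control libraries, grouped by their labels and numbered by their titles. TPM values per gene were computed by the authors and deposited as 1 table, from a SMARTer mRNA kit per the labels' protocols. No aligner, counter, annotation or strand setting is given in the sources used here. The submitters' processing notes name mouse builds only, but the table held 0 mouse identifiers, so coordinates come from GENCODE release 29 (GRCh38), matched by identifier. Of 61206 rows, 583 loci without a name were left out, and the authors' group means were not used.

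Genes with a mean of at least 1 TPM were fitted as log2(TPM + 1) with limma 3.58.1 (eBayes with a trend, R 4.3.3, no covariate), two-sided. Fold changes are on that scale, which understates changes of low genes. The fit was tested on simulated data. Differences between genes within libraries were compared by exact permutation (scipy 1.17.1), and 5 pairs were adjusted together. All 10 genes were named whatever their values. In each role of the pathway list the rule named up to 2 called genes averaging 5 TPM or more, by size of change, or else the tested gene that changed most, and for each called gene the 3 nearest profiles. These genes, lists and rules were chosen with earlier results of these data known.

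Across 13392 genes, the deviations of same-numbered libraries correlated at 0.111, 0.114 and 0.133, and those of differently numbered libraries at -0.116 to -0.00187. A replicate block was therefore run as an alternative, with the other alternatives given in the closing section. The main fit and the permutation tests took the libraries as unpaired.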

Additional observations from a re-analysis of the deposited data

How the results depend on the processing

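Each library was left out in turn, and the filter was dropped or raised to 5 TPM. The pseudocount was set to 0.1, repeated names were summed, the replicate block was added and the eBayes trend removed. Scaling was changed to quantile, to median-of-ratios, or to totals leaving aside mitochondrial, ribosomal RNA and immunoglobulin genes, called rescaling here. TNFAIP3 (log2 fold change 2.52 to 3.35), TNIP1 (0.49 to 0.67), BIRC3 (1.97 to 4.20) and TNFAIP2 (1.32 to 1.63) stayed called and higher in every alternative that tested them, with limma adjusted p of at most 0.0445. TRAF2, TRAF3, BIRC2 and MAP3K14 were called in none. The CYLD value was 0.58 without a filter (adjusted p = 0.14), 0.38 with quantile normalization (0.113), 0.54 after rescaling (0.0587), 0.58 with the replicate block (0.0859) and 0.45 to 0.67 without 1 library. The block changed the calls of no other gene of the group, where 4 rose with it, and among the other named genes it ended only those of XIAP and MAP3K14-AS1. Without a filter ZC3H12A, MAP3K14-AS1, CHUK and XIAP were not called (limma adjusted p between 0.0597 and 0.117), nor was XIAP without a trend (0.0619) or MAP3K14-AS1 with quantile normalization (0.0504). With a mean of at least 5 TPM 3 of the group were called, since CYLD and BIRC3 then leave the test. The sign of TRAF2 turned to -0.0041 after rescaling, and the difference of TRAF1 was 3.28 with a pseudocount of 0.1. Without 1 library, 1200 to 2350 of all genes tested were higher and 1408 to 2110 lower, against 2067 and 2143 with all libraries. The lowest counts came without XYA1353 replicate 2, and 1342 and 1360 were higher without control replicates 1 and 3. Of the other pathway genes 3 were lower without a filter, and 3 to 4 without 1 library, against 5. Apart from the cases whose construction shows it, the cause was not tested. The 3 scalings moved the median of all genes by -0.063 to -0.037 on the log2 scale. TPM values carry no depth, which limits what can be said of BIRC3 and TRAF1 in control libraries.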

Other observations

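Of the pathway list 8 genes were too low to be tested, and their values are described here after they were seen. BIRC7 (livin), another IAP gene, was at 1.92, 2.04 and 1.71 TPM in XYA1353 replicates, and it was listed at 0.05 TPM in control replicate 1 and at 0 in control replicates 2 and 3. TNFRSF13C, which encodes the BAFF receptor, was at 1.22, 1.08 and 0.94 TPM in XYA1353 replicates, against 0.33, 0.27 and 0.22 TPM in control replicates. CD40 was at 0.2, 0.1 and 0.09 TPM in XYA1353 replicates, and at 0.04, 0.04 and 0 TPM in control replicates. TNFRSF11A, which encodes RANK, was at 0.01, 0.1 and 0.01 TPM in XYA1353 replicates and listed at 0 in all control libraries. The groups did not overlap for these 4 of the 8 genes, against 47.6% of the genes tested, which all averaged 1 TPM or more. They overlapped for TNFRSF13B and CD27, with no library above 0.07 TPM, and TNIP3, a paralogue of TNIP1, and TNFRSF17 were listed at 0 in all 6 libraries.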
